A study of Mus musculus with 96 samples.

Results

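The 10 transcription factor genes described here mark or help to build the striatum and were followed in 2 brain regions, the nucleus accumbens (NAc), which is the ventral part of the striatum, and the prefrontal cortex (PFC). They are Rarb, Foxp1, Foxp2, Meis2, Isl1, Six3, Bcl11b, Ebf1, Zfp503 and Sp9, chosen by name, and they make up 10 of the 19918 genes counted. Each deposited Ensembl gene ID was matched to its symbol in the GENCODE M21 annotation of GRCm38, and all 10 were found. RNA sequencing of tissue punches gave 48 PFC and 48 NAc libraries from the same 48 mice. In this mouse model the testis-determining gene Sry is missing from the Y chromosome (written Y-) and is carried, in some animals, as a transgene on another chromosome. The genotypes were XX (ovaries), XXSry (testes), XY- (ovaries) and XY-Sry (testes), so that gonads and the Sry transgene always go together and cannot be told apart. Animals were unstressed controls or went through subchronic variable stress, which consisted of 3 restraint sessions of 1 hour each, spread over 6 days. Each region had 5 control and 6 stressed XX animals, 6 of either kind in XXSry, 7 controls against 6 stressed in XY-, and again 6 of either kind in XY-Sry. They came in 3 cohorts, the batch that the labels give. The labels used here name neither strain nor age.

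Most neurons of the striatum are medium spiny neurons, GABAergic projection cells born in the lateral ganglionic eminence of the embryo. Factors such as Gsx2 and the Dlx genes act early in that lineage, and the 10 genes described here act later or persist in the adult cells. Isl1 and Ebf1 favour the direct-pathway (dopamine D1 receptor) type, and Six3 and Sp9 are needed for the indirect-pathway (D2 receptor) type. Bcl11b (also called Ctip2), Foxp1 and Foxp2 are shared with deep-layer projection neurons of the cortex. Rarb encodes a retinoic acid receptor, a nuclear receptor that binds DNA together with a retinoid X receptor, and a promoter of its own gene holds a classic retinoic acid response element.

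Promoter sequence upstream of the start site is shown for Rarb, because of that element, and for Isl1 and Six3, because their level in the PFC was near 0. Sequences are from RefSeq on GRCm38.p6, 250 bases each, 5′ to 3′ on the gene's own strand. Capitals mark, on either strand, the letters of a retinoic acid response element, searched as 2 copies of GTTCA with 6 bases between them, and the CCAAT box (CCAAT, or ATTGG on the other strand).
Rarb, chr14:16575477-16575726, minus strand
Rarb: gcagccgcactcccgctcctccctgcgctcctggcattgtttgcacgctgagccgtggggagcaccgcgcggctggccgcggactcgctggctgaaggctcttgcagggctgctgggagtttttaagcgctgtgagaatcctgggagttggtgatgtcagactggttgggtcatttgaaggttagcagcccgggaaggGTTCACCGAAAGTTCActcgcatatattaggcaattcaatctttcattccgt
Isl1, chr13:116309689-116309938, minus strand
Isl1: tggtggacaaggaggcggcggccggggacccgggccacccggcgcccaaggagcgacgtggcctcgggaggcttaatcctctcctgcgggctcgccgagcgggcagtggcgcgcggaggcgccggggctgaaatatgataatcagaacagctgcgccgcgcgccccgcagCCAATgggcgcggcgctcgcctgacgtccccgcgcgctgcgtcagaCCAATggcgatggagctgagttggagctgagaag
Six3, chr17:85620584-85620833, plus strand
Six3: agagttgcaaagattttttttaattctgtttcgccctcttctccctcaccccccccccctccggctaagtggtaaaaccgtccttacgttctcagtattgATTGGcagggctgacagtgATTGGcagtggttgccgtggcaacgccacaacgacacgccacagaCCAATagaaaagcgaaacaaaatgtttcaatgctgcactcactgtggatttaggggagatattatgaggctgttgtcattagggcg

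The table of promoters held 12 entries for 9 of the 10 genes, with Foxp2 the exception. Each entry runs from 250 bases before to 50 bases after a start site. The start sites used for Rarb (16575476) and Six3 (85620834) lie inside the annotated genes, whose 5′ ends are at 16819156 and 85613608. The counts described below are per gene and do not separate start sites. The response element letters were found in 1 of the 12 entries, that of Rarb, at positions -52 to -37 from the start site, and in 25 of 32841 promoters of all genes (0.0761%). A CCAAT box was found in 5 of the 12 entries (Foxp1, Isl1, Meis2, Six3 and Sp9), against 37.4% of all promoters. The Six3 promoter held 3 CCAAT boxes and the Isl1 promoter 2. Of the other motifs searched on both strands, TAAACA (forkhead) was found in 3 entries, all of Foxp1, against 13.4% of all promoters. TGACAG (MEIS) was found in 3 entries (Foxp1, Rarb and Six3), against 19.2%. GGGCGG (GC box) was found in 3 entries (Foxp1 and Sp9), against 35.7%. The TATA box letters TATAAA were in 2 entries (Bcl11b and Meis2), against 13.6% of all promoters. The palindromic EBF motif was in 0 of the 12, against 0.904%. GC content of the 12 entries ranged from 36.7% to 75.3% (median 55.3%, against 52.7% over all promoters), with a median of 15.5 CpG dinucleotides against 7. A match says only that the letters are there.

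Before the members, the libraries were checked as a whole. Library totals were between 67551546 and 104387920 counts for the PFC, and between 45890551 and 120798601 for the NAc. These lie above the average read number that the submitters state, and whether a count is a read, a pair or an alignment is not stated, so what 1 count stands for is not known. The sex-linked genes followed the chromosome label in 96 of 96 libraries. All 14 medium spiny neuron markers were higher in the NAc, and 11 of 12 markers of cortical excitatory neurons were higher in the PFC. The exception was Crym, a thyroid hormone-binding protein, which was higher in the NAc. Cortical markers were not at 0 in the NAc: their summed level ran from 336.9 to 1277 CPM (a gene's count relative to its library's total, TMM-scaled) across NAc libraries and from 2575 to 2943 CPM in the PFC. Medium spiny neuron markers summed to between 547.8 and 695.8 CPM in the PFC and between 3216 and 8805 CPM in the NAc. In tissue of mixed cells, fewer cells of a type and less RNA per cell cannot be told apart. By the mean log2 level of the medium spiny neuron markers, 3 libraries lay over 5 median absolute deviations from their region's median. They were the PFC libraries of XY-Sry Stress replicate 30 and XY-Sry Control replicate 38, both high, and the NAc library of XY- Stress replicate 26, low.

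All 10 factors were higher in the NAc than in the PFC. In the fit with the animal as a block, each passed an adjusted p of 0.05 (edgeR quasi-likelihood test, Benjamini-Hochberg adjustment over all genes). That test called 44% of all genes higher and 41.9% lower in the NAc, so a call alone is common. The median log2 fold change, NAc minus PFC, was 2.91 over the 10 factors and 0.02 over all genes. Sizes ran from 0.86 for Foxp1 to 10.34 for Six3. Within animals, the NAc level was above the PFC level in 48 of 48 mice for 9 factors and in 47 of 48 for Foxp1. Of all genes, 15.7% were higher in the NAc in every animal. Leaving aside Foxp1, the highest PFC library was below the lowest NAc library for each (9 of 10), against 7.62% of all genes, with 8.79% separated in the other direction.

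**Figure D1:**
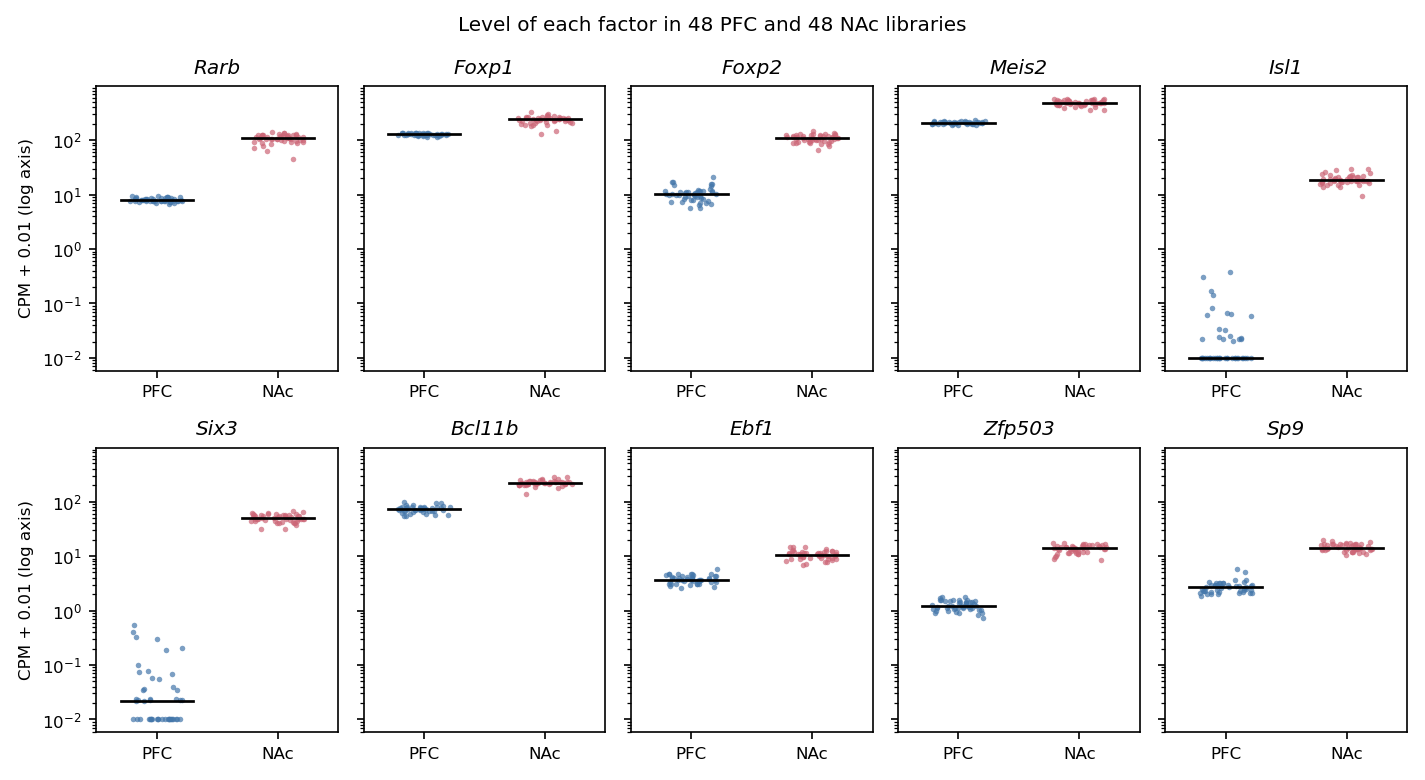
Level of each factor in every library, in CPM plus 0.01 on a log axis; a point is a library (48 per region) and a line is the median. Isl1 and Six3 lie at or near 0 in the PFC, and Foxp1 is the only factor whose regions overlap.

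Isl1 (chromosome 13, 116298281 to 116309689) and Six3 (chromosome 17, 85613608 to 85629302) were close to absent from the PFC. Isl1 had 0 counts in 29 of 48 PFC libraries and at most 29 counts in a library. Its PFC level ranged from 0 to 0.365 CPM, with a median of 0, and its NAc level from 9.56 to 29.4 CPM, with a median of 18.2. For a library with 0 counts, 3 counts was taken as an approximate upper bound on the expected count. Over the 48 PFC libraries that is 0.0301 to 0.046 CPM, which covers counting error only. Six3 had 0 counts in 23 PFC libraries and at most 42, a range of 0 to 0.529 CPM with a median of 0.012. In the NAc it ranged from 30.7 to 68.5 CPM, with a median of 49.6. The lowest NAc library was thus 26.2 times the highest PFC library for Isl1 and 58.1 times for Six3.

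The fitted log2 fold changes, NAc minus PFC, were 9.88 (SE 0.21, adjusted p = 5.37e-35) for Isl1 and 10.34 (SE 0.20, adjusted p = 2.24e-35) for Six3, from edgeR. These rank 5 and 4 among the 19918 genes. Six3 shares 106 exonic bases with Six3os1 and 168 with Gm28528, both on the opposite strand, and Six3os1 itself averaged 0.0194 CPM in the PFC against 28.2 CPM in the NAc. Their size rests on few PFC counts. It was 10.89 and 11.09 without the XX Control animal of replicate 35, 11.39 and 12.06 with DESeq2, and 11.95 and 12.61 within cohort 3. The ratio of mean CPM was 666 for Isl1 and 963 for Six3.

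The PFC counts of both genes came from few libraries. For Isl1, 81 of 109 PFC counts (74.3%) lay in 5 libraries, and for Six3, 142 of 204 (69.6%). Replicates 19, 30, 35 and 38 were among the 5 for both genes, which came from XY- Control, XY-Sry Stress, XX Control and XY-Sry Control. Replicate 35 held 29 Isl1 and 42 Six3 counts and had the highest cholinergic neuron marker score of the 48 PFC libraries. Replicate 30 held 15 and 37 counts and had the highest medium spiny neuron marker score, with replicate 38 next (6 and 24 counts). Replicate 11, of XXSry Control, held 21 and 14 counts and ranked 46 of 48 in that score. The part of striatal cells in these counts was not tested.

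Rarb (chromosome 14, 16430839 to 16819156) showed the next largest difference. It ranged from 6.72 to 9.34 CPM in the PFC, with a median of 7.88, and from 44.9 to 139 CPM in the NAc, with a median of 109. The log2 fold change was 3.73 (SE 0.05, adjusted p = 3.19e-44, edgeR). Within animals the NAc was between 5.87 and 18.3 times the PFC. Rarb shares 1793 exonic bases with Top2b, on the opposite strand, and the counting strand is not stated, so reads of Rarb and Top2b over those bases cannot be told apart. The level of Top2b was 165.7 CPM (PFC) and 187 CPM (NAc).

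Zfp503 (Nolz1, a zinc finger repressor; chromosome 14, 21983959 to 21989601) and Foxp2 (chromosome 6, 14901349 to 15441977), a forkhead factor known for its role in vocal learning, were about 10 times as high in the NAc. Zfp503 ranged from 0.732 to 1.77 CPM in the PFC (median 1.19) and from 8.35 to 17.5 CPM in the NAc (median 13.8), a log2 fold change of 3.48 (SE 0.06, adjusted p = 7.39e-41, edgeR). Foxp2 ranged from 5.65 to 21.1 CPM in the PFC (median 10.3) and from 64.4 to 145 CPM in the NAc (median 109), a log2 fold change of 3.37 (SE 0.07, adjusted p = 1.87e-35, edgeR). Foxp2 spread widely in the PFC, with a coefficient of variation of 29.98%, against 4.2% for Foxp1 and 4.8% for Meis2.

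Sp9 (chromosome 2, 73271925 to 73284706), a zinc finger factor of ganglionic eminence derivatives, ranged from 1.85 to 5.66 CPM in the PFC (median 2.71) and from 10.3 to 19.9 CPM in the NAc (median 14.2). Its log2 fold change was 2.45 (SE 0.06, adjusted p = 4.18e-34, edgeR). It shares 270 exonic bases with Cir1, on the opposite strand, whose own level was 20.6 CPM (PFC) and 21.6 CPM (NAc).

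Bcl11b, Ebf1, Meis2 and Foxp1 had the smallest differences between the regions. Bcl11b (chromosome 12, 107910403 to 108003602), a zinc finger factor, ranged from 55.3 to 97.8 CPM in the PFC (median 73.7) and from 139 to 279 CPM in the NAc (median 221), a log2 fold change of 1.59 (SE 0.03). Ebf1 (chromosome 11, 44617317 to 45008091), a helix-loop-helix factor, ranged from 2.61 to 5.73 CPM in the PFC (median 3.68) and from 6.95 to 14.8 CPM in the NAc (median 10.6), a log2 fold change of 1.53 (SE 0.05). The regions came close for Ebf1 without overlapping. Meis2 (chromosome 2, 115863064 to 116065839), a homeobox factor and PBX partner, ranged from 188 to 233 CPM in the PFC (median 209) and from 353 to 569 CPM in the NAc (median 486), a log2 fold change of 1.21 (SE 0.02). Foxp1 (chromosome 6, 98925338 to 99522721), a forkhead repressor, ranged from 115 to 137 CPM in the PFC (median 127) and from 127 to 327 CPM in the NAc (median 240), a log2 fold change of 0.86 (SE 0.03). For Foxp1 the regions overlapped.

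Per kilobase of exon, Meis2 was the highest of the 10 in both regions, at 17.4 ± 0.83 CPM per kb in the PFC and 40.4 ± 4.31 in the NAc (SD, n = 48). In the PFC, Foxp1 (9.26 ± 0.389) and Bcl11b (9.02 ± 1.19) came next and differed by less than 1 SD of either. Rarb followed at 1.52 ± 0.12, and then Foxp2, Sp9, Ebf1 and Zfp503, between 0.64 and 0.294, where the mean ± SD ranges of neighbours overlapped. Six3 and Isl1 were last, near 0. In the NAc the order was Meis2, Bcl11b (27.3 ± 2.96), Rarb (20.4 ± 3.57), Foxp1 (17.1 ± 2.61), Six3 (9.22 ± 1.48), Foxp2 (6.62 ± 0.995), Isl1 (4.86 ± 1.01), Zfp503 (3.24 ± 0.532), Sp9 (2.88 ± 0.432) and Ebf1 (1.09 ± 0.19). There the mean ± SD ranges overlapped between Rarb and Foxp1, Foxp2 and Isl1, and Zfp503 and Sp9.

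**Figure D2:**
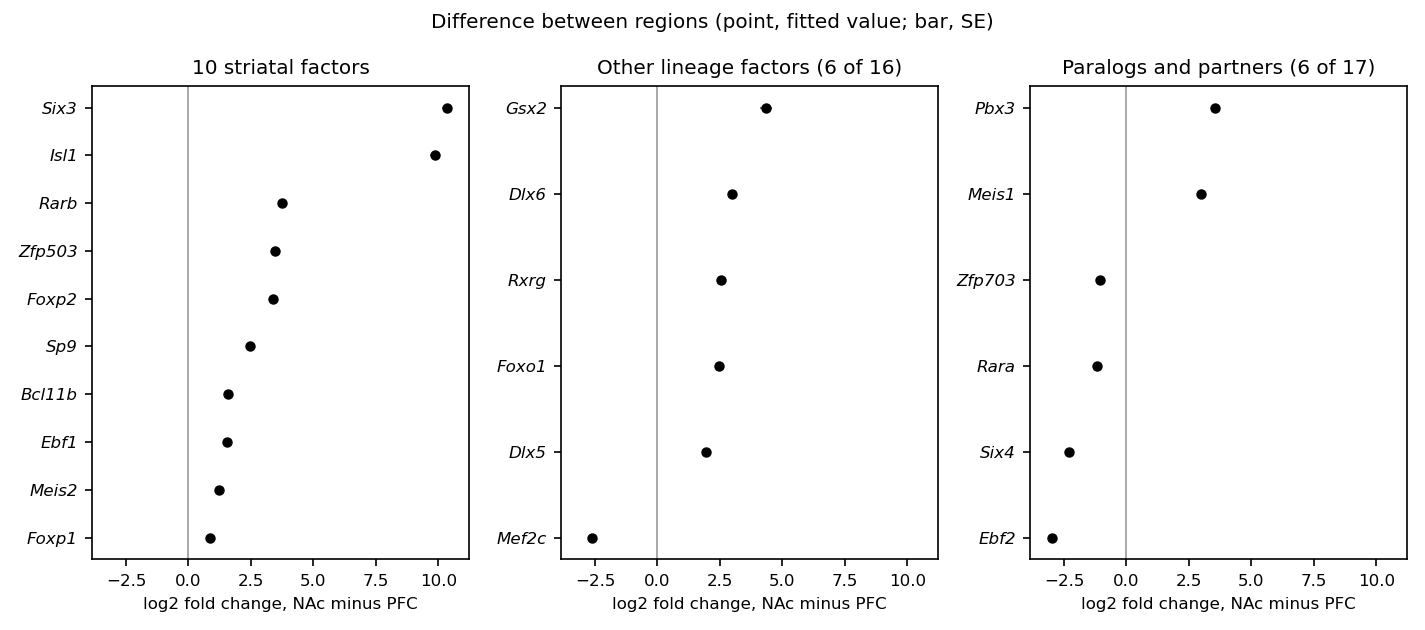
Log2 fold change, NAc minus PFC, of the 10 factors, and of the 6 genes with the largest called difference among 16 other factors of the striatal lineage and among 17 paralogs and partners; a point is the fitted value and a bar its SE, often smaller than the point. The 10 factors all lie above 0, and the paralogs drawn fall on both sides.

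Other transcription factors of the striatal lineage mostly went the same way. Of the 16 listed, 13 were called higher in the NAc, 2 lower and 1 was not called, with a median log2 fold change of 1.28 against 0.02 over all genes. Gsx2, a homeobox gene that specifies the lateral ganglionic eminence, had the largest rise, 4.34 (SE 0.24), from a level of only 0.537 CPM in the NAc. The homeobox gene Dlx6 (2.99, SE 0.04), the retinoid X receptor Rxrg (2.55, SE 0.07) and the forkhead factor Foxo1 (2.48, SE 0.04) rose too, as did Dlx5 (1.95, SE 0.05). Mef2c, an activity-linked factor abundant in cortical neurons, fell by 2.64 on the log2 scale (SE 0.07), from 1299 to 217.5 CPM.

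Of 17 paralogs and partners of the 10 factors measured, 7 were called higher in the NAc, 8 lower and 2 were not called, with a median of 0.01. These shares are near those of all genes (44% higher and 41.9% lower, median 0.02). Pbx3 (3.56, SE 0.05), a partner of MEIS proteins, and Meis1 (2.97, SE 0.08), whose exons overlap another gene on the same strand, were the highest. Ebf2 fell by 2.98 (SE 0.18) and Six4 by 2.31 (SE 0.12), the opposite direction to Ebf1 and Six3. The retinoic acid receptor Rara fell by 1.19 (SE 0.04), where Rarb rose, and Zfp703, the paralog of Zfp503, fell by 1.08 (SE 0.04) on the log2 scale.

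Stress changed none of the factors past the threshold in either region. In the PFC, 0 of the 9 factors tested and 0% of the 19292 genes were called for stress minus control, and in the NAc 0 of 10 and 0% of 19684 (edgeR, adjusted p of 0.05). Isl1 did not pass the filter on low counts in the PFC, and Six3 did, but with so few counts that its PFC contrasts are not described. At an unadjusted p below 0.05, 1 of 9 factors was found in the PFC, where 5.73% of all genes were, and 0 of 10 in the NAc, where 4.59% were. DESeq2 and limma-voom also called 0 factors for stress, as they did for each of the other contrasts within a region. In the NAc the 10 values lay between -0.04 and 0.08 on the log2 scale, each with an SE of 0.05 to 0.09. In every region, and for treatment, chromosomes and gonads alike, the libraries of the 2 sides overlapped for each factor (60 of 60 combinations). How many of all genes overlap in the same way was not counted, so this is not known to be particular to the factors. For Isl1 and Six3 in the PFC, libraries at 0 on both sides make the overlap certain.

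**Figure D3:**
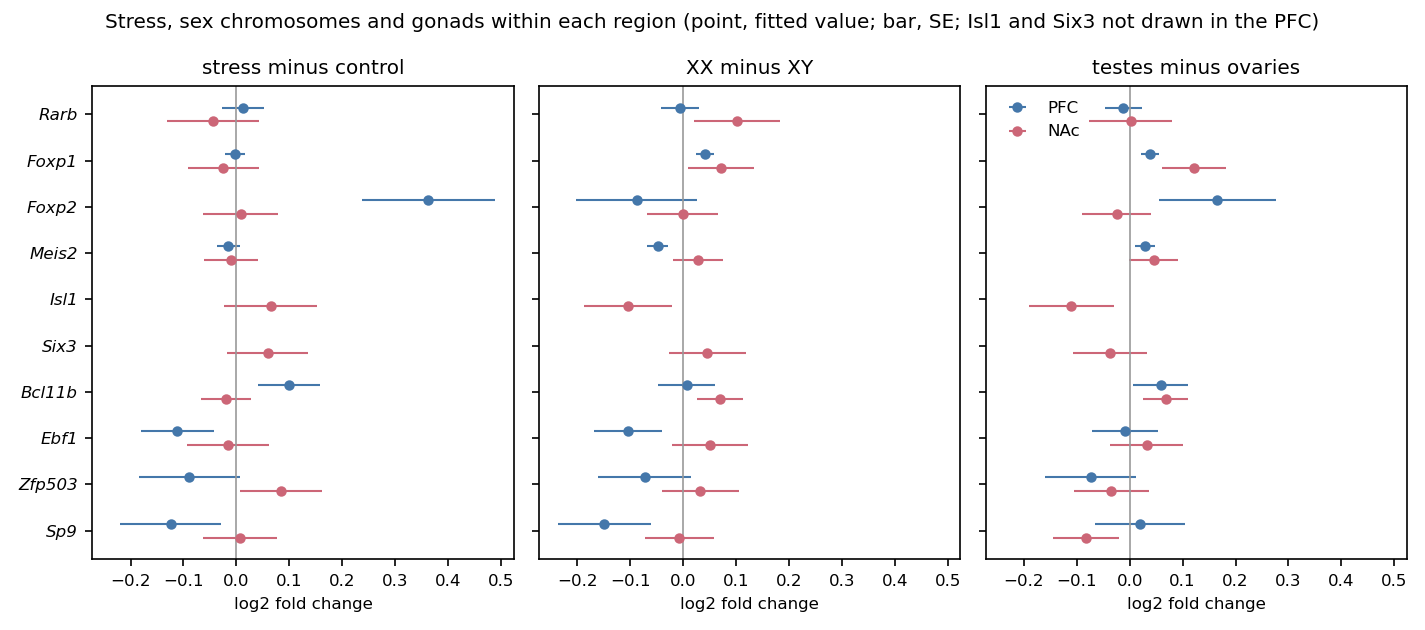
Log2 fold change of each factor for stress minus control, XX minus XY and testes minus ovaries, in the PFC (blue) and the NAc (red); a point is the fitted value and a bar its SE. Most points lie within about 1 or 2 SE of 0, and Foxp2 in the PFC, at 0.36 for stress, lies farthest from 0 of those drawn. Isl1 and Six3 are not drawn for the PFC.

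Foxp2 in the PFC was the factor with the smallest p for stress. It ranged from 5.65 to 15.3 CPM in 24 controls (median 9.32) and from 5.65 to 21.1 CPM in 24 stressed animals (median 11.1). The log2 fold change was 0.36 (SE 0.13), with an unadjusted p of 0.0061 and an adjusted p of 0.664 in edgeR. It lay between 0.32 and 0.41 with each of the 48 animals left out in turn, and was 0.42 in cohort 1, 0.04 in cohort 2 and 0.56 in cohort 3. Treatment was unbalanced over cohorts. Cohort 2 (n = 12) held no stressed XXSry or XY- animal, so its value rests on few stressed animals. Cohort 3 (n = 13) held no XX or XXSry control, so its value rests on few controls. By genotype, the group means were 9.06 and 9.70 CPM (control and stress) in XX, 9.45 and 11.99 in XXSry, 8.21 and 12.6 in XY-, and 10.8 and 12.1 in XY-Sry. In XY- the 7 controls were at 10.6, 6.96, 7.82, 6.44, 8.41, 7.50 and 9.76 CPM, and the 6 stressed animals at 12.5, 11.4, 15.6, 16.9, 7.80 and 11.3. All but 1 of the stressed XY- animals lay above every XY- control. The log2 fold change in XY- was 0.66 (SE 0.22, unadjusted p = 0.0037, adjusted p = 0.313, edgeR). In the NAc, Foxp2 was at 107 CPM in stressed and 109 CPM in control XY- animals, on average.

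Bcl11b went along with Foxp2 in the PFC of XY- animals, at 67.4 ± 7.87 CPM in controls (SD, n = 7) and 76.0 ± 10.3 CPM under stress (SD, n = 6). Its log2 fold change there was 0.21 (SE 0.10) and the adjusted p was 0.524 in edgeR. The difference between regions in the stress effect on Foxp2, NAc minus PFC, was -0.36 on the log2 scale (SE 0.14), with an adjusted p of 0.956. For that contrast 0 of 10 factors and 0% of all genes were called, and Foxp2 was the 1 factor with an unadjusted p below 0.05.

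**Figure D4:**
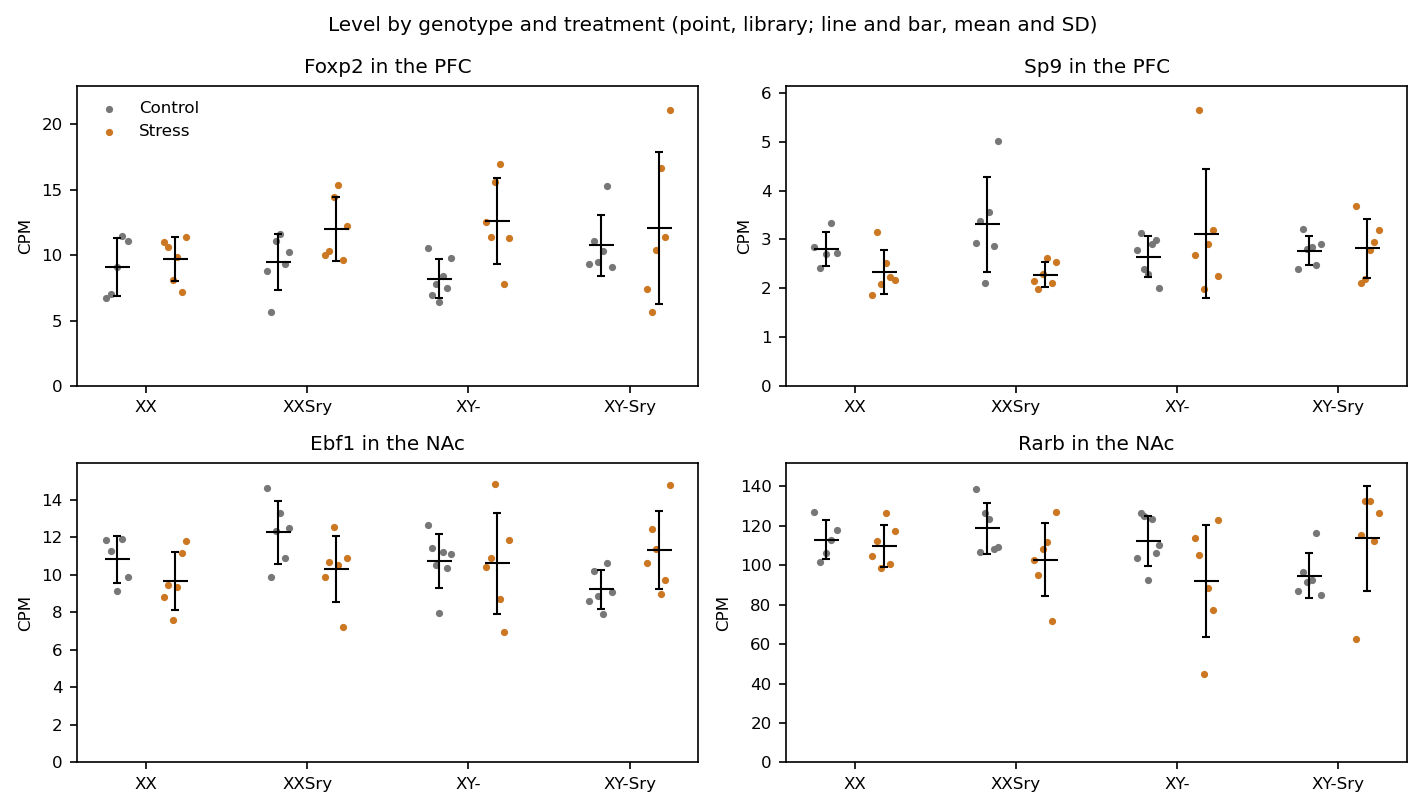
Level in CPM by genotype and treatment for Foxp2 and Sp9 in the PFC and Ebf1 and Rarb in the NAc; a point is a library, and the line and bar are the group's mean and SD. For Foxp2 in the PFC, 5 of the 6 stressed XY- animals lie above every XY- control, and for Sp9 the XXSry groups overlap through 1 control.

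Sp9 in the PFC differed most in XXSry mice. The 6 controls were at 2.93, 3.39, 2.11, 3.56, 2.86 and 5.01 CPM and the 6 stressed animals at 2.14, 1.99, 2.30, 2.63, 2.10 and 2.54. The ranges overlapped through 1 control, replicate 27. The log2 fold change was -0.55 (SE 0.17, unadjusted p = 0.00242, adjusted p = 0.803, edgeR), and it was -0.39 without control replicate 51 and -0.67 without control replicate 27. Over both genotypes of a chromosome pair, Sp9 averaged 3.08 ± 0.77 CPM in XX controls (SD, n = 11), 2.31 ± 0.35 in stressed XX animals (n = 12), 2.71 ± 0.357 in XY controls (n = 13) and 2.97 ± 0.992 in stressed XY animals (n = 12). The interaction of stress with chromosomes was -0.49 (SE 0.17, unadjusted p = 0.00539, adjusted p = 1, edgeR). Of the cell type markers that moved with Sp9 across PFC libraries (given further on), the cortical interneuron list had a median log2 change of -0.03 under stress in XXSry and the septal and thalamic list 0.03. Their part in the Sp9 value was not tested.

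In the NAc, 0 of 10 factors and 0% of all genes were called for the interaction of stress with chromosomes, with gonads, or of chromosomes with gonads, and in the PFC 0 of 9 and 0%. At an unadjusted p below 0.05 each region had 1 factor for stress by chromosomes (3.14% of all genes in the PFC, 3.02% in the NAc). For stress by gonads each had 0 (6.72% and 2.94%), as for chromosomes by gonads (4.35% and 2.84%). Ebf1 had the smallest p among them in the NAc, with a stress by chromosomes value of -0.35 (SE 0.14, unadjusted p = 0.0141, adjusted p = 0.987, edgeR). It averaged 12.3 ± 1.69 CPM in XXSry controls and 10.3 ± 1.75 under stress, and 9.22 ± 1.02 in XY-Sry controls and 11.3 ± 2.09 under stress (SD, n = 6 each).

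Stress within single genotypes gave 0 called factors and 0% of genes in each of the 4 genotypes in either region. At an unadjusted p below 0.05 the PFC had 1 factor in XXSry (5.8% of all genes), 2 in XY- (9.13%), 0 in XX (3.02%) and 0 in XY-Sry (6.3%). The NAc had 3 in XY-Sry (6.2% of all genes), 0 in XX (3.84%), 0 in XXSry (2.49%) and 0 in XY- (4.45%). In the NAc of XY-Sry mice the fitted values of all 10 factors were above 0, with a median of 0.22 against 0.00 over all genes, and 3 had an unadjusted p below 0.05. Zfp503 was the largest, at 0.34 (SE 0.15, adjusted p = 0.797, edgeR). Its controls were at 12.9, 11.2, 10.8, 11.95, 13.6 and 8.35 CPM and its stressed animals at 9.98, 11.98, 16.9, 17.5, 14.7 and 15.3, so that 4 of 6 stressed animals lay above every control. Ebf1 (0.33, SE 0.15) and Six3 (0.30, SE 0.15) had the same adjusted p of 0.797. In these same animals all 14 medium spiny neuron markers had values above 0 (median 0.32), and 10 of 12 cortical excitatory neuron markers had values below 0 (median -0.42). None of either list was called, and the part of the tissue's cell mix in the factors' values was not tested. In XXSry, 9 of 10 factors had values below 0 under stress (median -0.16), beside a median of -0.18 for the medium spiny neuron markers.

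Rarb in the NAc spread most in stressed XY- animals. They were at 114, 105, 44.9, 88.4, 77.3 and 123 CPM (92.1 ± 28.5, SD, n = 6), and the XY- controls ranged from 92.7 to 126 CPM. The lowest, replicate 26, is the NAc library that stood apart in medium spiny neuron markers. Rarb averaged 119 ± 12.8 CPM in XXSry controls, the highest group, and 94.8 ± 11.5 CPM in XY-Sry controls (SD, n = 6 each). For 7 of the 10 factors the highest of the 8 NAc group means was that of XXSry controls, and the lowest was XY-Sry control for 5 factors and XY- stress for 4. The same was not counted over all genes. The factors also moved together across NAc libraries (r above 0 in all 45 pairs), so these counts are not independent. The ratio of the highest to the lowest NAc group mean was between 1.15 and 1.37 for the 10 factors.

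Sex chromosomes and gonads did not move a factor past the threshold either. For XX minus XY, 0 of 9 factors and 1.12% of genes were called in the PFC, and 0 of 10 and 0.584% in the NAc. At an unadjusted p below 0.05 there were 2 factors in the PFC (11.6% of genes) and 0 in the NAc (5.97%). For testes minus ovaries, 0 of 9 factors and 0.0467% of genes were called in the PFC, and 0 of 10 and 0.0102% in the NAc, with 1 factor (6.74% of genes) and 0 (9.28%) at an unadjusted p below 0.05. In the PFC, Foxp1 was at 129 ± 4.63 CPM in 23 XX and 126 ± 5.46 CPM in 25 XY animals, a log2 fold change of 0.04 (SE 0.02, unadjusted p = 0.0191, adjusted p = 0.298, edgeR). Meis2 was at 206 ± 10.5 and 212 ± 8.67 CPM in the same animals, a value of -0.05 (SE 0.02, adjusted p = 0.311, edgeR). Foxp1 was also at 129 ± 5.12 CPM with testes and 126 ± 5.05 CPM with ovaries (SD, n = 24 each), a value of 0.04 (SE 0.02, adjusted p = 0.643, edgeR). These differences are about as large as 1 SD among animals or smaller. The region difference itself was not called to depend on chromosomes (0 of 10 factors, 0.0151% of genes) or gonads (0 of 10, 0%), and at an unadjusted p below 0.05 there were 0 factors for either.

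The 16 other lineage factors and the 17 paralogs gave the same counts. In the PFC, 0 of 15 and 0 of 17 were called for stress, chromosomes, gonads, their interactions or stress within a genotype, and in the NAc 0 of 16 and 0 of 17. Cohort was called for 0 of 9 factors and 0.181% of genes in the PFC and for 0 of 10 and 0% in the NAc. Ebf1 in the PFC had the smallest p for cohort (adjusted p = 0.144, edgeR), with 4.08 ± 0.62 CPM in cohort 1 (n = 23), 3.52 ± 0.552 in cohort 2 (n = 12) and 3.47 ± 0.494 in cohort 3 (SD, n = 13).

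Across libraries of a region, several factors moved with marker lists of neurons and other cells. Each relation is over 48 libraries, after group and cohort means were taken out of the log2 CPM values, with the mean of a list's log2 CPM as its score. There were 198 such relations, with permutation p-values of 100000 draws adjusted over all of them. By r, 19 of 110 were called positive and 18 negative in the NAc, and 12 and 10 of 88 in the PFC. The same was not counted over all genes, so these counts are not known to be particular to the factors. Within a single cohort the group means were taken out again. Cohorts 2 and 3 held 12 and 13 libraries, so r within them is imprecise. Correlated levels share each library's dissection, RNA and depth, which were not tested as a source.

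In the NAc, Rarb followed the medium spiny neuron markers most closely (r = 0.908, rho = 0.82, permutation p = 1e-05, adjusted p = 0.00011); no smaller permutation p is possible with this number of draws. Without the 2 libraries farthest from the median score r was 0.853, and it was between 0.899 and 0.962 within the 3 cohorts. Meis2 (r = 0.823, rho = 0.731), Foxp1 (r = 0.801, rho = 0.723), Bcl11b (r = 0.715, rho = 0.588) and Foxp2 (r = 0.635, rho = 0.545) did so too, all with the same adjusted permutation p for r. Without the 2 farthest libraries these were 0.728, 0.751, 0.598 and 0.475, and within single cohorts none of the 4 was below 0.59. Six3 (r = 0.694, rho = 0.602, adjusted permutation p = 0.00011) and Zfp503 (r = 0.572, rho = 0.55, adjusted permutation p = 0.000283) were called for that list as well, at 0.588 and 0.465 without the 2 farthest libraries. Isl1 (r = 0.301, rho = 0.234) and Sp9 (r = 0.235, rho = 0.148) were not called, at 0.228 and 0.236 without those libraries. Ebf1 was not called by r (0.271, adjusted permutation p = 0.129) but was by rho (0.417, adjusted permutation p = 0.0161). Its r was 0.54 without the 2 farthest libraries, and 0.618, 0.571 and -0.151 within cohorts 1, 2 and 3.

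For Isl1, Six3 and Zfp503 the largest r in size was with the cortical excitatory neuron markers, and it was negative. It was -0.795 for Six3 (rho = -0.79), -0.698 for Isl1 (rho = -0.665) and -0.664 for Zfp503 (rho = -0.661), each with an adjusted permutation p for r of 0.00011. Without the 2 farthest libraries these were -0.782, -0.654 and -0.643. Within single cohorts Six3 ran from -0.774 to -0.662, Isl1 from -0.856 to -0.508 and Zfp503 from -0.719 to -0.469. The same 3 factors followed the cholinergic neuron markers (r = 0.658 for Six3, 0.638 for Isl1 and 0.612 for Zfp503, rho = 0.511, 0.523 and 0.544, adjusted permutation p = 0.00011 each for r). Without the 2 farthest libraries r was 0.575, 0.586 and 0.596, but it was 0.268 for Six3 within cohort 3 and 0.188 for Isl1 within cohort 2. Isl1 is known to be expressed in striatal cholinergic interneurons as well as in direct-pathway neurons. Sp9 was negative with the cortical excitatory list over all 48 libraries (r = -0.422, rho = -0.461, permutation p = 0.00277, adjusted p = 0.0125) and at -0.439 without the 2 farthest, but r was 0.395 within cohort 2 and -0.094 within cohort 3. With the septal and thalamic list Sp9 was about as strongly related (r = 0.418, rho = 0.454, permutation p = 0.00321, adjusted p = 0.0137), at 0.416 without the 2 farthest libraries and 0.303, 0.496 and 0.705 within cohorts 1, 2 and 3. Ebf1 was negative with the cortical interneuron list (r = -0.408, rho = -0.423, permutation p = 0.00411, adjusted p = 0.0166), with -0.476 without the 2 farthest libraries and -0.619 to -0.395 within cohorts. This was not particular to Ebf1: in the NAc 9 of 10 factors were called negative with that list and 8 with the cortical excitatory list. The endothelial list was called positive for 5 factors and the cholinergic list for 4. How many of all genes would be called with these lists was not counted.

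In the PFC, Foxp1 and Bcl11b followed the cortical excitatory neuron markers (r = 0.726 and 0.723, rho = 0.719 and 0.715, adjusted permutation p = 0.00011 each), with 0.683 and 0.691 without the 2 farthest libraries and at least 0.753 and 0.553 within cohorts. In the NAc their r with that list was -0.384 (adjusted permutation p = 0.028) and -0.193 (adjusted permutation p = 0.293). The difference between regions was not tested. Sp9 followed the septal and thalamic markers (r = 0.598, rho = 0.4, permutation p = 4e-05, adjusted p = 0.00036), with 0.505 without the 2 farthest libraries and 0.237 within cohort 3. With the cortical interneuron markers Sp9 was called by r (0.449, adjusted permutation p = 0.00705) but not by rho (0.264, adjusted permutation p = 0.146). Its r with that list was 0.359 without the 2 farthest libraries and -0.17 within cohort 3. The list includes Sp8, which is also among the other lineage factors. XY- Stress replicate 15, the PFC library highest in Sp9 (5.66 CPM), also had the highest cortical interneuron score (5.32) and the highest septal and thalamic score (3.28) of the region. Ebf1, which pericytes express, followed the mural cell markers (r = 0.465, rho = 0.359, permutation p = 0.00082, adjusted p = 0.00507), with 0.459 without the 2 farthest, 0.664 in cohort 1, 0.016 in cohort 2 and 0.207 in cohort 3. Meis2 fell as oligodendrocyte markers rose (r = -0.488, rho = -0.447, permutation p = 0.00056, adjusted p = 0.0037), with -0.384 without the 2 farthest and -0.131 within cohort 3. Foxp2 was negative with astrocyte markers (r = -0.43, rho = -0.364, permutation p = 0.00251, adjusted p = 0.0116), with -0.342 without the 2 farthest and -0.6 to -0.515 within cohorts. Foxp2 also followed the medium spiny neuron markers there (r = 0.425, rho = 0.541, adjusted permutation p = 0.0133), at 0.554 without the 2 farthest and 0.556 to 0.733 within cohorts. So did Bcl11b (r = 0.459, rho = 0.498, adjusted permutation p = 0.0073) and Meis2 (r = 0.432, rho = 0.495, adjusted permutation p = 0.00948). Foxp1 was called by r (0.386, adjusted permutation p = 0.0245) but not by rho (0.305, adjusted permutation p = 0.0965). The lowest r within a cohort was 0.257 for Bcl11b, 0.07 for Meis2 and 0.194 for Foxp1. Foxp2 (r = 0.371, adjusted permutation p = 0.0333) and Meis2 (r = 0.351, adjusted permutation p = 0.0497) were also called by r with the cortical excitatory list, at -0.104 and 0.022 within cohort 2. By rho neither was called with that list (0.338 and 0.341, adjusted permutation p = 0.0633 and 0.0618). Rarb and Zfp503 had no called relation in the PFC.

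**Figure D5:**
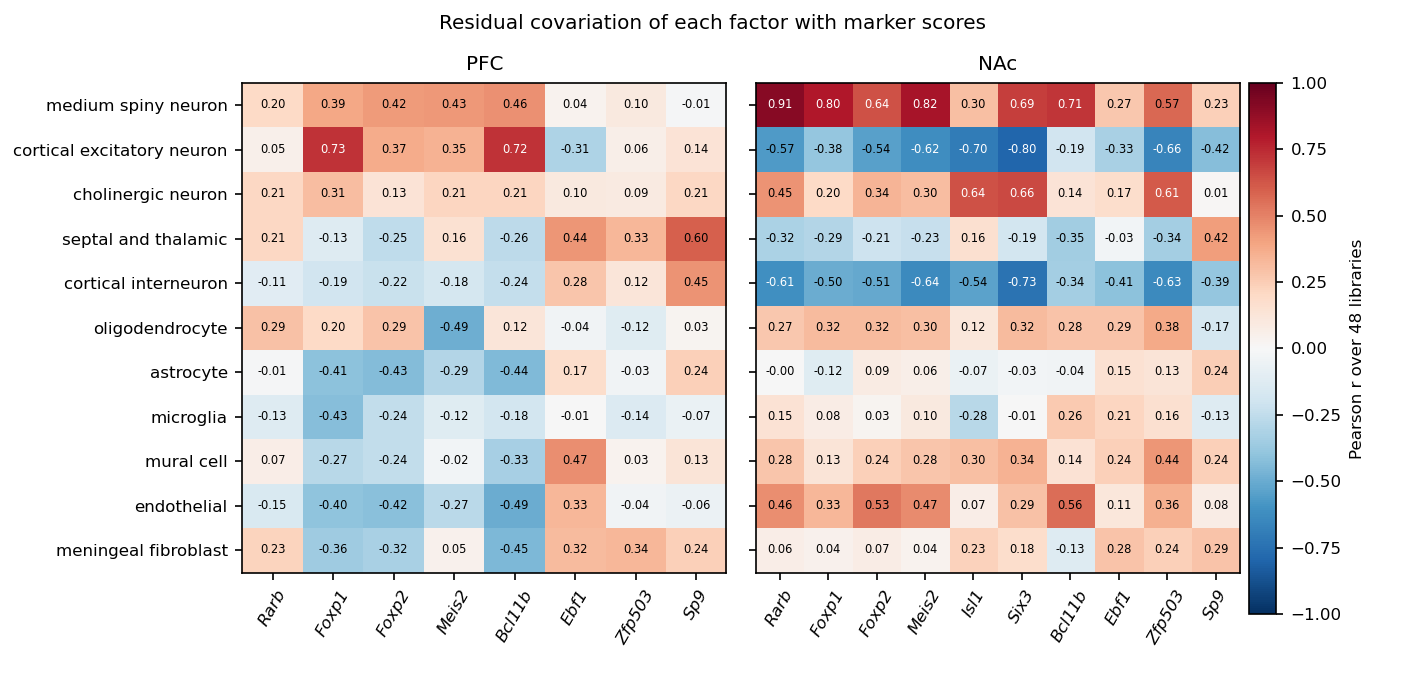
Pearson r over 48 libraries between each factor (columns) and each marker list's score (rows), after group and cohort means were removed, in the PFC and the NAc; red is positive and blue negative. In the NAc the row of medium spiny neuron markers is red, up to 0.91 for Rarb, and the cortical rows are blue; in the PFC only Foxp1 and Bcl11b are strongly red with cortical excitatory markers.

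Correlations between the factors themselves are given as a description, and the regions were not tested against each other. Over the 45 pairs in the NAc, r ran from 0.118 (Isl1 and Bcl11b) to 0.88 (Rarb and Meis2), with a median of 0.446 and all 45 above 0. In the PFC, over 28 pairs without Isl1 and Six3, r ran from -0.204 (Bcl11b and Ebf1) to 0.776 (Foxp2 and Bcl11b), with a median of 0.228 and 23 above 0. Six3 and Zfp503 had an r of 0.82 in the NAc, and Zfp503 and Sp9 0.538 in the PFC.

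For each factor the 3 most similar genes over the 48 libraries of a region were sought, and no gene was among a factor's 3 in both regions. In the NAc, the gene most like Foxp1 was Kcnab1 (r = 0.932), and the D1 receptor Drd1 (0.92) was also among its 3. For Meis2 it was Foxo1 (0.947), for Rarb Strip2 (0.926), Gprin3 (0.925) and Kctd8 (0.922), for Foxp2 Prkar2b (0.865), for Bcl11b Ubl3 (0.85), and for Isl1 Isoc1 (0.799). For Six3 it was its antisense neighbour Six3os1 (0.897), which shares 106 exonic bases with it, then the GABA-synthesizing enzyme Gad2 (0.877) and the opioid precursor Pdyn (0.875). Pdyn also led for Zfp503 (0.855), and Sorcs1 for Ebf1 (0.81). In the PFC, the genes most like Foxp2 were Syt6 (0.886), Sema5a (0.881) and Prss35 (0.873), and Prss35 was also among those of Bcl11b (0.776), after Rnf152 (0.794). For Sp9, Hmgn1 (0.719) and Zic2 (0.669), which is on the septal and thalamic list, led. Zic2 itself was lower in the NAc (log2 fold change -0.42, SE 0.098). XY- Stress replicate 15 had the highest PFC score for the septal and thalamic list (3.28) and for the meningeal fibroblast list (3.51). Sp9 was not called with the meningeal list there (r = 0.236, adjusted permutation p = 0.192). A meningeal part in the Sp9 and Zic2 levels was not tested. Npr3 led for Foxp1 (0.767), Angpt1 for Meis2 (0.766), Sqor for Ebf1 (0.58), Epop for Zfp503 (0.675) and the forkhead gene Foxc1 for Rarb (0.538). These were chosen as the highest of 13232 genes in the NAc and 13109 in the PFC, so their r has no p.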

How the data were processed

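RNA from PFC and NAc tissue punches was made into polyadenylated RNA libraries from 100 ng with 15 cycles of amplification, per the labels' protocols. The submitters' processing notes name HISAT2 2.2.0, Trimmomatic 0.38, FastQC 0.11.9, DESeq2, edgeR and the build GRCm38 (mm10). For the counting tool, strand setting and annotation they used, nothing is given in the sources used here. The authors deposited raw counts per Ensembl gene, 1 table per region with 19918 genes, and 0 columns were left unused. GENCODE M21 gave symbols for 19795 IDs and not for 123.

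Groups came from the labels' genotype and treatment, and n counts animals. Counts were tested with edgeR 4.0.16 (TMM scaling, genes kept by filterByExpr on the groups, robust quasi-likelihood fit) under R 4.3.3. Within a region the model had 8 group means and cohort. Across regions it had the animal as a replicate block, since the labels name the same animal for both libraries; over 14712 genes, deviations from group means in an animal's pair of libraries correlated at a median of 0.108, above 0.1 in 26 of 48 animals. P-values were adjusted by Benjamini-Hochberg over all genes, and calls are below 0.05. Levels are CPM with TMM library sizes over all 96 libraries, also divided by exon length in kb. Marker scores are means of log2(CPM + 0.5). No 2 libraries of a group had the same counts within sampling noise. The models were also run on simulated counts with a fixed dispersion and no animal or cohort effect, which leaves those terms untested.

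The 10 factors, the gene lists and the marker lists were chosen with earlier results of these data known. Every factor is named; of the other factors and of the paralogs, up to 6 with the largest called region difference; and per factor and region up to 3 genes with the highest residual correlation (mean of at least 1 CPM). Some items that this rule picks are not reported here. Alternatives were DESeq2 1.42.0, limma 3.58.1 (voom), other scaling, other filters, no cohort term, single cohorts and leaving out animals.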

Additional observations from a re-analysis of the deposited data

Results flagged for a closer look

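A library was set apart where its gap to the nearest of its group exceeded the 95% critical value of Dixon's test. This was applied to 160 sets of libraries (10 factors in 16 groups) and found 23. Of these, 15 were from PFC and 8 from NAc libraries. For independent sets of normally distributed values, chance flags about 1 in 20. That rate does not hold for Isl1 and Six3 in the PFC, where a few counts in a single library are enough for a flag. Factors also moved together across NAc libraries, so the sets are not independent. The same was not counted over all genes, so whether 23 is more than chance gives is not known. No explanation was tested.

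In the PFC, 13 of the 15 were Isl1 or Six3, where most libraries were at or near 0. For Isl1 the high libraries were XX Control replicate 35 (0.365 CPM), XXSry Control replicate 11 (0.297), XXSry Stress replicate 28 (0.048), XY- Control replicate 19 (0.131), XY-Sry Stress replicate 30 (0.163), XY- Stress replicate 31 (0.0507) and XY-Sry Control replicate 38 (0.0723). For Six3 they were XX Control replicate 35 (0.529 CPM), XXSry Control replicate 11 (0.198), XY- Control replicate 19 (0.314), XY-Sry Stress replicate 30 (0.401), XX Stress replicate 20 (0.176) and XY-Sry Control replicate 38 (0.289). The other 2 were Foxp2 in XY-Sry Control replicate 47 (15.3 CPM, nearest other 11.1) and Sp9 in XY- Stress replicate 15 (5.66 CPM, nearest other 3.20), both high.

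In the NAc, XY-Sry Stress replicate 7 was low for Rarb (62.4 CPM, nearest other 112) and Meis2 (360 CPM, nearest other 499.5). XY- Control replicate 16 was low for Foxp1 (185 CPM, nearest other 238) and Bcl11b (175 CPM, nearest other 213), and XY- Stress replicate 26 was low for Bcl11b (139.5 CPM, nearest other 199). Zfp503 was low in XXSry Stress replicate 28 (8.74 CPM, nearest other 13.5). Isl1 was high in XXSry Control replicate 27 (28.45 CPM, nearest other 19.1), and Rarb was high in XY-Sry Control replicate 47 (116.5 CPM, nearest other 96.7). NAc replicate 7 had the highest cortical excitatory marker score of its region, 5.73 on the log2 scale, and the lowest cholinergic score, 1.77.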

How the results depend on the processing

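The region difference of the 10 factors was called, in the same direction, under each of the 15 alternatives run, namely DESeq2, limma-voom, other size factors, no filter, a stricter filter, no replicate block, each cohort alone, each of the 5 XX control animals left out (with the full fit's dispersion trend) and without the libraries that stand apart; leaving out the libraries that stand apart, and reusing the trend, were chosen after seeing the data. With no replicate block all 10 were called, with log2 fold changes such as 0.88 for Foxp1 and 10.30 for Six3, so the animal block changed no call. Outside Isl1 and Six3, the widest range was that of Ebf1, 1.31 to 1.67. No other contrast called a factor under any alternative run, which in each region included leaving out each of the 48 animals in turn. Among the contrasts named for an unadjusted p below 0.05, 1 turned its sign: Foxp1 for testes minus ovaries in the PFC was -0.0024 within cohort 3. Their smallest adjusted p over the alternatives was 0.134, for Foxp2 under stress in XY- with DESeq2. Of the 16 strongest relations with marker scores, 1 turned its sign: Sp9 with cortical excitatory neuron markers in the NAc, at 0.395 within cohort 2. That cohort held 12 libraries, and group means were taken out within it, so r there is imprecise. The causes were not tested. Leaving out animals other than the XX controls was not run for the region difference. Low counts limit Isl1 and Six3 in the PFC. Within cohort 2 there was no stressed XXSry or XY- animal, and within cohort 3 no XX or XXSry control, so those fits lack 2 groups each. Among all genes, the count called for XX minus XY in the PFC was 217, but 356 with DESeq2, 128 without the libraries that stand apart, 26 in cohort 2 and 24 in cohort 3; in the NAc it was 115, but 70 with limma-voom, 43 in cohort 1 and 20 in each other cohort. For testes minus ovaries DESeq2 called 17 against 9 genes in the PFC and 19 against 2 in the NAc, and for stress in XY- in the PFC 15 against 0.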
